A study of Homo sapiens with 6 samples.

Results

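The 10 genes described here encode neural cell adhesion molecules of the immunoglobulin superfamily: the 4 genes of the CADM (SynCAM, nectin-like) family, *CADM1*, *CADM2*, *CADM3* and *CADM4*; the 2 genes of the NCAM family, *NCAM1* and *NCAM2*; and the 4 genes of the L1 family, *L1CAM*, *NRCAM*, *CHL1* and *NFASC*. They were selected on their normalized values in these same libraries, as named families of the 62710 gene rows analysed with earlier results known, so their values between parental and resistant cells are given as a description and carry no p-value. H526, a small cell lung cancer (SCLC) cell line, was kept in RPMI-1640 medium containing fetal bovine serum (5%), and its parental form (libraries 1 to 3) was compared with 1 onvansertib-resistant derivative (libraries 7 to 9). The resistant cells had been selected in onvansertib, an inhibitor of polo-like kinase 1 (PLK1), raised stepwise from 10 to 75 nM over a year or longer, and the comparison asks how expression differs in cells with acquired resistance. Whether the drug was present when the resistant cells were harvested is not given in the sources used here, so a lasting difference and a response to the drug cannot be told apart. RNA was harvested at 3 separate times from each line, so the spread between libraries is that of repeated harvests of 1 line, not of independently derived resistant lines.

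Adhesion molecules of this superfamily carry immunoglobulin domains outside the cell and bind the same molecule, or a relative, on the neighboring cell. Inside the cell, CADM proteins end in a short sequence that binds PDZ scaffolds and carry a site for band 4.1 proteins, whereas L1 family proteins bind ankyrin, which ties them to the spectrin skeleton. NCAM1, also known as CD56, can carry polysialic acid and is used in the pathology laboratory as a marker of neuroendocrine tumors such as SCLC, and CADM1 was described as a tumor suppressor in non-small cell lung cancer.

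The sequences below show what the members share within a family and were read from the GRCh38 genome within 1 coding exon each. In the CADM family they are the last 60 coding bases before the stop codon, and the capitals mark the last 4 codons, which encode the PDZ-binding end. The stretches lie at chr11:115176477-115176536 on the minus strand (*CADM1*), chr3:86066721-86066780 on the plus strand (*CADM2*), chr1:159200860-159200919 on the plus strand (*CADM3*) and chr19:43623333-43623392 on the minus strand (*CADM4*).
CADM1: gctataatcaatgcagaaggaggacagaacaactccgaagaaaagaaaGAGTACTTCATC
CADM2: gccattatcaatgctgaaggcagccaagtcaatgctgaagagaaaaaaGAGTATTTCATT
CADM3: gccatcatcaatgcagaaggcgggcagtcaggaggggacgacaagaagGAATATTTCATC
CADM4: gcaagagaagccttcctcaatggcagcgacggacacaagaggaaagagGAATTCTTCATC

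Position by position and without gaps, *CADM1* and *CADM2* shared 73.3% of these bases, *CADM1* and *CADM3* shared 70% and *CADM2* and *CADM3* shared 68.3%. *CADM4* shared between 35% and 38.3% with the others.

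In the L1 family the stretches hold the cytoplasmic ankyrin-binding motif, whose 15 coding bases are in capitals. They lie at chrX:153862729-153862788 on the minus strand (*L1CAM*), chr7:108149976-108150035 on the minus strand (*NRCAM*), chr3:405601-405660 on the plus strand (*CHL1*) and chr1:205016414-205016473 on the plus strand (*NFASC*).
L1CAM: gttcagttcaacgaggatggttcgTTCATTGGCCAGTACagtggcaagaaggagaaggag
NRCAM: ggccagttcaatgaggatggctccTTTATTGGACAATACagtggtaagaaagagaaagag
CHL1: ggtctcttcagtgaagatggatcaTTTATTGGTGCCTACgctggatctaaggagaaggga
NFASC: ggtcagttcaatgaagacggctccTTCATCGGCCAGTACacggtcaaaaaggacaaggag

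*L1CAM* and *NRCAM* shared 81.7% of these bases, *L1CAM* and *NFASC* 80%, and *NRCAM* and *NFASC* 75%, whereas *CHL1* shared between 63.3% and 65% with the others. No stretch of 31 bases was shared between transcripts of any 2 members, so reads of one member could not be mistaken for another over such a stretch. Stretches shared with genes outside the members made up 32.6% of those of *CADM3*, 9.63% of *L1CAM* and 6.65% of *NCAM1*. For the other members they made up at most 2.9%.

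The libraries held between 22379601 and 28510810 reads, estimated from the deposited normalized values, and 3 reads corresponded to a mean value of 2.83 in the parental and of 3.16 in the resistant group, which covers counting error only. A gene was tested with limma if its mean over the 6 libraries reached 10, on the log2(value + 1) scale, and a gene is called past the threshold when its Benjamini-Hochberg adjusted p over all 16347 genes tested is under 0.05. A log2 difference is resistant minus parental on that scale, and for genes at low values it is smaller than the true change. Many genes differed between these lines, since 37.7% of all genes tested were past the threshold, 19.8% lower and 17.8% higher in resistant cells. Among cell type markers, the sum of 10 neuroendocrine genes was between 7374 and 9031 in parental and between 1492 and 1718 in resistant libraries, and 5 of the 5 that could be tested fell. *INSM1*, a neuroendocrine transcription factor, fell from 6091 ± 571 to 1253 ± 114 (SD, n = 3 per group; log2 difference −2.28, limma adjusted p = 1.64e-07). *POU2F3*, which defines the tuft cell-like subtype of SCLC, was at 25809 ± 1178 and 27273 ± 535 (log2 difference 0.08, limma adjusted p = 0.304; past the threshold at 0.28 with quantile normalization). The sum of 10 tuft cell genes was between 100601 and 103210 in parental and between 111529 and 113347 in resistant libraries, with 7 of the 10 higher and 2 lower past the threshold. One that fell, named after its values were seen, was *AVIL*, from 20954 ± 813 to 12018 ± 264 (limma adjusted p = 5.34e-06). Of the fibroblast markers, *DCN* was near 0 in both lines while the sum of 6 genes was between 144 and 192 in parental and between 385 and 627 in resistant libraries. Of the 3 fibroblast genes tested, *COL1A1* (log2 difference 2.20) and *COL1A2* (1.15) were higher past the threshold, and *COL3A1* (−0.73) was not past it. Blood and endothelial lists each had 1 gene that could be tested. The blood gene, *CD14* (−0.44), was not past the threshold, and the endothelial gene, *VWF* (0.77), was past it and higher. The part of these markers in the adhesion gene values was not tested.

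Of the 10 adhesion genes, 7 passed the filter on low values, and *CADM2*, *NCAM2* and *CHL1* did not. *L1CAM*, with a mean of 51.8 over the 6 libraries, was the member nearest to the filter from above, and *CHL1*, with 8.84, the nearest from below. Among the 7, 5 were past the threshold and lower in resistant cells (*CADM1*, *CADM3*, *NCAM1*, *L1CAM* and *NFASC*), against 19.8% of all genes tested, and 0 were higher. *CADM4* and *NRCAM* were not past it. In 6 of the 7, *CADM4* added, every resistant library was below every parental library, against 25.9% of all genes tested. Because the genes were chosen with this contrast known, nothing is read from these counts. In bulk RNA, fewer cells with a transcript and less of it per cell cannot be told apart.

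**Figure D1:**
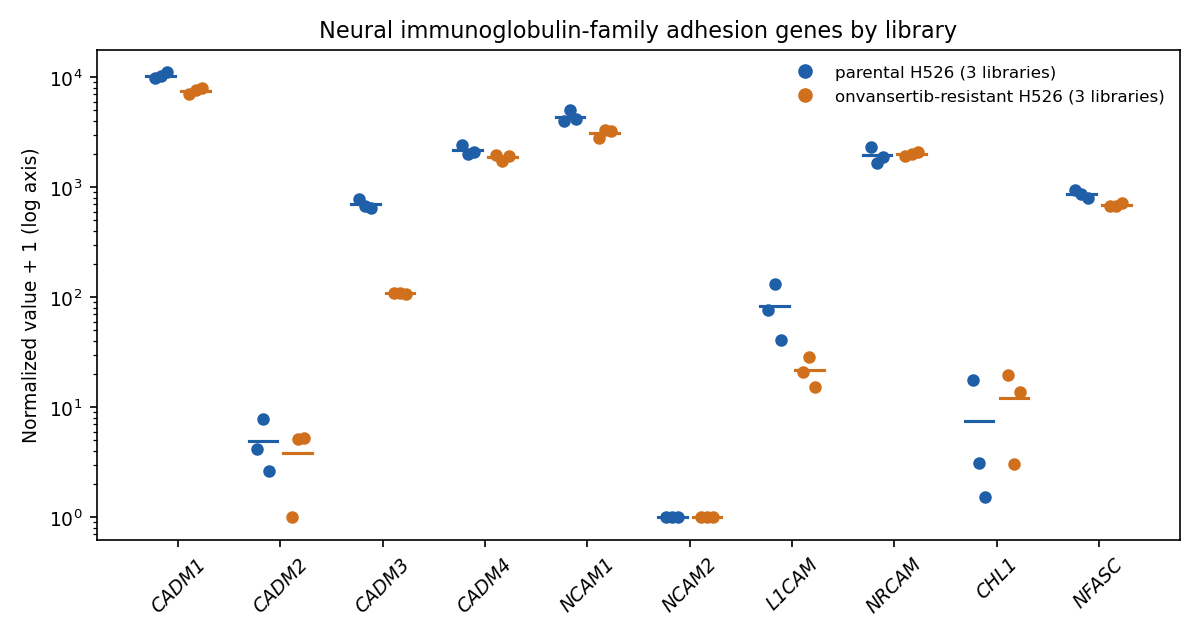
Normalized value plus 1 (log axis) of the 10 adhesion genes in each library, with bars at the group means, for parental (blue) and resistant (orange) H526 cells. The separation is widest for *CADM3*, at 642 to 778 in parental and 107 to 109.6 in resistant libraries, whereas *NCAM2* is listed at 0 throughout.

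*CADM3* had the largest difference of the 7. This nectin-like molecule is known mainly from nerve cells, where it binds other CADM proteins across the contact. It was at 778, 680.2 and 642 in parental libraries 1, 2 and 3, and at 108, 109.6 and 107 in resistant libraries 7, 8 and 9. The resistant libraries lay within a narrow band far below the parental ones. The mean fell from 700.0 ± 70.4 to 108 ± 1.55 (SD, n = 3 per group), to 15.5% of the parental level or 6.47-fold lower, with a log2 difference of −2.68 (SE 0.13). Among all genes tested it held rank 140 from the most negative log2 difference.

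*CADM1*, the founding member of the family and a binding partner of CADM3, was the most abundant of the 10 genes per length. It was at 9835, 10177 and 11058 in parental and at 6989, 7608 and 8028 in resistant libraries. The groups were apart, but by much less than for *CADM3*. The mean was 10357 ± 631 in parental and 7542 ± 523 in resistant cells, 72.8% of the parental level, with a log2 difference of −0.46 (SE 0.07). *CADM4*, the member known from Schwann cells and epithelia, was at 2448, 2015 and 2108 in parental and at 1964, 1716 and 1939.9 in resistant libraries. Its groups were separated by a small margin, between 1964 and 2015, and the log2 difference was −0.22 (SE 0.09), not past the threshold. *CADM2*, a neuronal member, was at 3.17, 6.89 and 1.62 in parental and at 0, 4.20 and 4.30 in resistant libraries. Of these libraries, 2 were at or under the value of 3 reads, and without the filter on low values it was not past the threshold.

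Divided by the length of the longest annotated transcript, the summed level of the CADM family was 2382 ± 95.0 per kb in parental and 1754 ± 77.5 per kb in resistant cells (SD, n = 3). *CADM1* made up 50.2% ± 3.61 of that sum in parental and 49.6% ± 2.75 in resistant cells. The share of *CADM4* was 42.0% ± 3.04 and 48.8% ± 2.78, and that of *CADM3* was 7.86% ± 0.677 and 1.65% ± 0.095. With the median transcript length the shares were 87.4% and 86.9% for *CADM1*, 10.9% and 12.8% for *CADM4* and 1.71% and 0.36% for *CADM3*. By either length the share of *CADM1* was close in both lines and that of *CADM3* was lower in resistant cells.

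In the NCAM family only *NCAM1* was detected. It was at 3973, 5015 and 4163 in parental and at 2835, 3303 and 3279 in resistant libraries. All resistant values lay below the lowest parental value. The mean was 4384 ± 555 and 3139 ± 264 (SD, n = 3 per group), 71.6% of the parental level, with a log2 difference of −0.48 (SE 0.10). This is close in size to the difference of *CADM1*, whereas the 5 neuroendocrine markers tested had a median log2 difference of −3.53. The antisense gene *NCAM1-AS1*, which overlaps it, was at 11.03, 15.1 and 18.6 in parental and at 15.6, 15.3 and 20.1 in resistant libraries, far below *NCAM1*. *NCAM2*, known from olfactory neurons, was listed at 0 in all 6 libraries.

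The L1 family held members whose differences ranged widely in size. *L1CAM*, which guides axons and is used as a marker of invasive growth in several carcinomas, was at 76.3, 132 and 40.2 in parental and at 19.8, 27.9 and 14.3 in resistant libraries. The groups did not overlap, but the parental libraries were spread over a wide range. The mean was 83.0 ± 46.4 in parental and 20.6 ± 6.82 in resistant cells, 24.9% of the parental level or 4.02-fold lower. Its log2 difference of −1.84 had the largest standard error of the 7 members, 0.43, and ranged from −2.28 to −1.43 over the 14 other settings tried.

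*NFASC* (neurofascin), which gathers sodium channels at the axon initial segment and at nodes of Ranvier, was at 941, 872 and 803 in parental and at 675, 681 and 725 in resistant libraries. The groups were apart, with means of 872 ± 68.8 and 694 ± 27.1 and a log2 difference of −0.33 (SE 0.09). It was no longer past the threshold when parental library 1, resistant library 7 or resistant library 8 was left out, with a log2 difference of −0.27 at the smallest over all settings. *NRCAM*, a relative that also sits at nodes of Ranvier, was at 2305, 1675 and 1886 in parental and at 1927, 2007 and 2105 in resistant libraries. The groups overlapped, and the log2 difference of 0.05 (SE 0.11) turned to −0.05 without parental library 2. *CHL1*, the close homolog of L1, was at 16.8, 2.13 and 0.526 in parental and at 18.7, 2.06 and 12.8 in resistant libraries. High and low libraries occurred in both groups, and 3 of the 6 were at or under the value of 3 reads. In the 4 settings that tested it, among them the fit without the filter, it was not past the threshold.

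**Figure D2:**
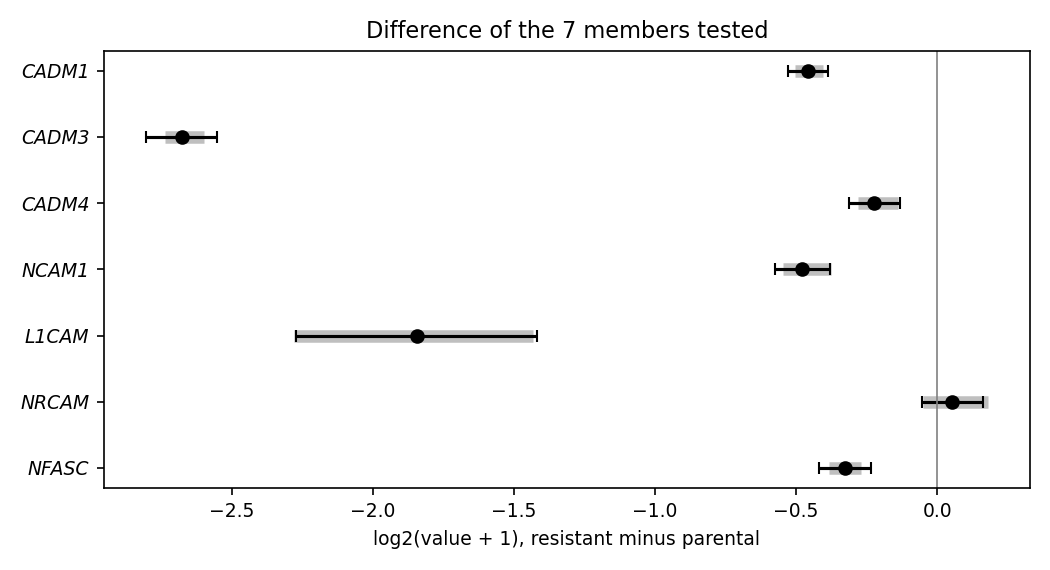
Log2 difference of log2(value + 1), resistant minus parental, of the 7 adhesion genes tested. Points with bars are the estimate and its standard error, and grey bands span the values with each library left out in turn. *CADM3* (−2.68) and *L1CAM* (−1.84) lie farthest from 0, the band of *L1CAM* is the widest, and that of *NRCAM* (0.05) spans 0.

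Per kb of the longest transcript, the L1 family summed to 393 ± 51.1 in parental and 373 ± 14.9 in resistant cells. *NRCAM* made up 74.0% ± 4.07 of the sum in parental and 80.5% ± 0.407 in resistant cells. *NFASC* had 21.6% ± 1.67 and 18.0% ± 0.225, and *L1CAM* had 4.19% ± 2.63 and 1.08% ± 0.373. With the median transcript length *NRCAM* had 88.9% and 93.1%, *NFASC* 6.66% and 5.34% and *L1CAM* 4.19% and 1.03%. By either length the family total was mainly that of *NRCAM*.

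In parental cells the levels per kb of the longest transcript ran from *CADM1* (1194 ± 72.7) over *CADM4* (1001 ± 104), *NCAM1* (753 ± 95.4), *NRCAM* (292 ± 47.8), *CADM3* (187 ± 18.8) and *NFASC* (84.3 ± 6.65) to *L1CAM* (16.1 ± 9.04; SD, n = 3). *CHL1*, *CADM2* and *NCAM2* came last, and the ranges of *CHL1* and *CADM2* overlapped. No other neighbors in this order had overlapping ranges. In resistant cells *CADM1* (869 ± 60.3) and *CADM4* (856 ± 62.5) overlapped, followed by *NCAM1* (539 ± 45.3) and *NRCAM* (300.4 ± 13.3). *NFASC* (67.1 ± 2.62) now stood above *CADM3* (28.9 ± 0.416), which had been the higher of the pair in parental cells. With the median transcript length in place of the longest, *NCAM1* (4595 per kb) and *NRCAM* (2916) stood above *CADM4* (1759) in parental cells, so that the place of *CADM4* depends on the length used. Overlaps between neighbors in the order depended on it too. By the median length *NFASC* and *L1CAM* overlapped in parental cells. In resistant cells *NCAM1* overlapped *NRCAM*, and *L1CAM* overlapped both *CADM3* and *CHL1*.

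The start of *CADM3* is shown because this member had the largest difference. The 250 bases before its RefSeq start (GRCh38.p14, chr1:159171365-159171614, plus strand) had a GC content of 70.4%, against a median of 58% over 35116 RefSeq promoters of that length.
CADM3 promoter: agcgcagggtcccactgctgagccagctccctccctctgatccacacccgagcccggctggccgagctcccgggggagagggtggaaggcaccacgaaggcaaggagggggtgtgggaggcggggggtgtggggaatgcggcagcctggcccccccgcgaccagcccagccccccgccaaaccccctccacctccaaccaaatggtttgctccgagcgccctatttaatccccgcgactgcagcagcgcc

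On either strand, none of 5 motifs searched was in this window. They were CAGCTG and CAGATG (bound by basic helix-loop-helix factors), present in 14% and 12.2% of all promoters, TTCAGCACC (part of the repressor element RE1; 0.288%), ATGCAAAT (the octamer; 1.63%) and GGGCGG (the GC box; 42.6%). The first 2 do not overlap each other. No match says only that these letters are not in the window.

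*CADM3* lies on chromosome 1 (GRCh38, chr1:159171609-159203313, plus strand). Its nearest tested gene, *ACKR1*, begins 1.56 kb beyond its end on the same strand and encodes the atypical chemokine receptor that carries the Duffy blood group. *ACKR1* was at 57.0, 50.6 and 50.3 in parental and at 8.68, 0.915 and 3.79 in resistant libraries. It was low in every resistant library, and fell from 52.6 ± 3.81 to 4.46 ± 3.93 (SD, n = 3 per group; log2 difference −3.59, limma adjusted p = 0.000705). The antisense gene *CADM3-AS1* overlaps the end of *CADM3* and the whole of *ACKR1* on the minus strand. It was at 11.6, 16.5 and 7.87 in parental and at 1.04, 1.04 and 4.32 in resistant libraries and had too low a mean to be tested. Of 3876 stretches of 31 bases in the transcripts of *CADM3*, 1265 (32.6%) also occur in those of *CADM3-AS1*. The counting is not stated to use strand, so reads from these shared stretches cannot be told apart. Stretches shared by *ACKR1* and *CADM3-AS1* were not counted, so the values of the 3 genes may not be independent. On the other side, *KIRREL1*, another immunoglobulin-family adhesion gene 1071 kb away, had a log2 difference of −0.27 and was not past the threshold (limma adjusted p = 0.239).

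**Figure D3:**
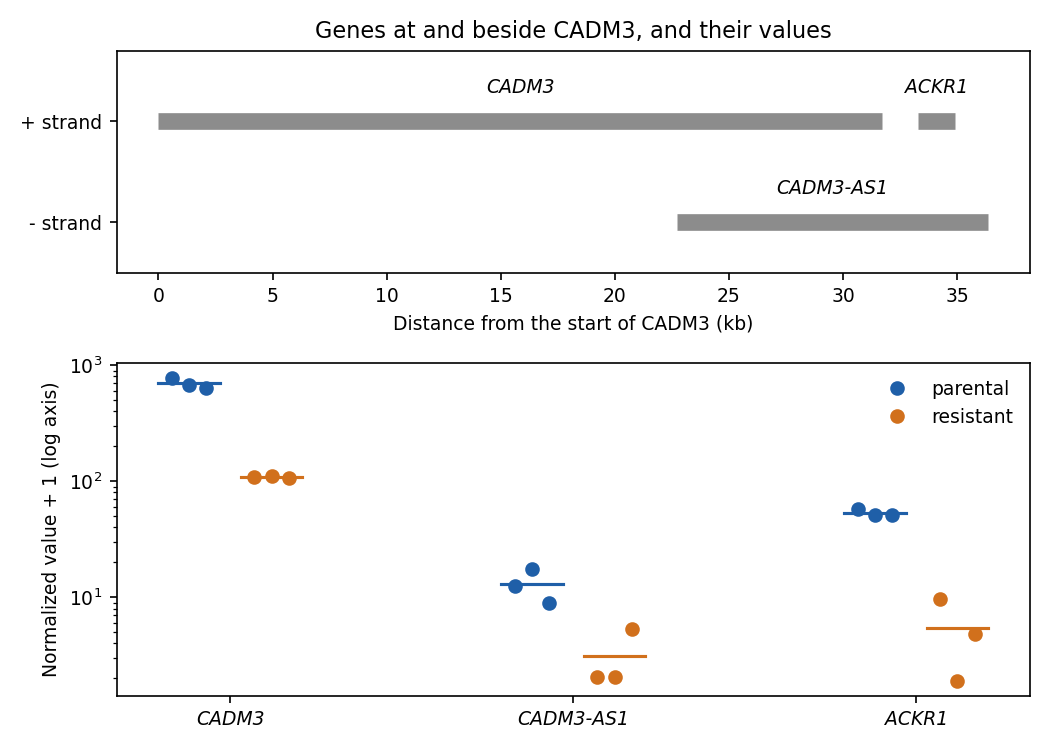
Top, the spans of *CADM3*, *CADM3-AS1* and *ACKR1* by strand in kb from the start of *CADM3*; bottom, their normalized value plus 1 (log axis) in each parental (blue) and resistant (orange) library, with bars at the means. All 3 genes were lower in every resistant library than in any parental one, down to 4.46 on average for *ACKR1*. *CADM3-AS1* overlaps the other genes, so the values of the 3 may not be independent.

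The genes around the members were used to see whether a member differed in the same way as its stretch of chromosome. For *CADM3*, the 50 tested genes beside it (25 on either side, chr 1 from 156.2 to 161.1 Mb) had a median log2 difference of 0.07, with 13 higher and 8 lower past the threshold. With 10 genes on either side that median was 0.22. Over 50 genes it was also within 0.1 of 0 beside *CADM1* (0.04), *CADM4* (0.02), *NCAM1* (0.05) and *NFASC* (0.04). These members thus lay below the median of the genes around them, *CADM4* without being past the threshold. Some of the nearest tested genes lay lower still: *ACKR1* (−3.59) beside *CADM3*, *ZNF428* (−0.48) beside *CADM4* and *LRRN2* (−1.80) beside *NFASC*. So did *TMEM81* (−0.46) beside *NFASC* and *ENSG00000247416* (−0.55), which overlaps the start of *NCAM1* on the other strand, neither past the threshold. The rest were *KIRREL1* (−0.27), *BUD13* (−0.14), *REXO2* (0.05), *NCAM1-AS1* (0.20) and *PLAUR* (0.96). Beside *L1CAM* the median was −0.17, with 17 of 50 genes lower and 3 higher, a fraction of the log2 difference of −1.84 of *L1CAM* itself.

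*NRCAM* stood the other way. Of the 50 tested genes beside it on chromosome 7 (104.7 to 121.0 Mb), 44 had a log2 difference below 0, 24 were past the threshold and lower, 2 were higher, and the median was −0.41. *NRCAM*, at 0.05, was thus higher than this median. With each gene set against the median of its neighbors in every library, its log2 difference became 0.53 and passed the threshold. That call is a description only, since the members were chosen with this contrast known. The nearest tested genes differed in direction: *PNPLA8*, a phospholipase gene 13.7 kb away, fell (log2 difference −0.31, limma adjusted p = 0.0198), a call lost without parental library 1, resistant library 8 or the trend and when set against its own neighbors (0.15), and *LAMB1*, a laminin gene 144 kb away, rose from 527 ± 119 to 845 ± 28.2 (log2 difference 0.70, limma adjusted p = 0.00341).

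**Figure D4:**
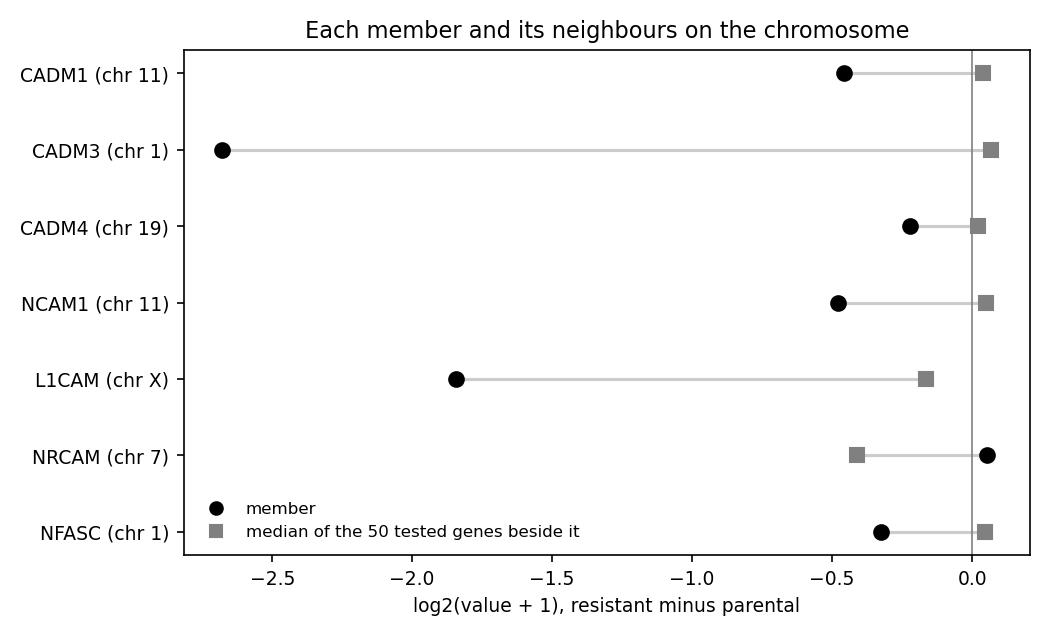
Log2 difference, resistant minus parental, of each tested adhesion gene (circles) and the median over the 50 tested genes beside it on its chromosome (squares). The medians lie between −0.41 beside *NRCAM* and 0.07 beside *CADM3*, and *NRCAM* is the one member to the right of its median.

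Of the members that could not be tested, *NCAM2* lay in a stretch of chromosome 21 with a median log2 difference of 0.58 over 50 genes, 26 higher and 6 lower (0.87 with 50 genes on either side), while *NCAM2* itself was listed at 0. The medians were 0.08 beside *CADM2* and −0.07 beside *CHL1*. Of the 19 nearest tested genes, 8 fell, 3 rose and 8 were not past the threshold. Of all genes tested, 19.8% were lower and 17.8% higher. *PPIAP22*, a pseudogene beside *NCAM2*, was among those that fell (log2 difference −0.36, limma adjusted p = 0.046). Its call was lost without the filter or the trend, with quantile normalization and when any library but resistant library 7 was left out. Besides *LAMB1*, those that rose were *PLAUR* and *MRPL39*. *PLAUR*, the urokinase receptor gene 6.2 kb from *CADM4*, rose from 82.0 ± 24.3 to 156 ± 14.7 (log2 difference 0.96, limma adjusted p = 0.00918). On the other side of *CADM4*, *ZNF428*, 2.74 kb away, fell from 4279 ± 196 to 3073 ± 90.7 (log2 difference −0.48, limma adjusted p = 0.000273). *MRPL39*, a mitochondrial ribosome gene 4042 kb from *NCAM2*, rose from 604 ± 29.6 to 899 ± 58.6 (0.57, limma adjusted p = 0.00084). Set against its own neighbors, *MRPL39* was at −0.11. *LRRN2*, a leucine-rich repeat gene 143 kb before *NFASC*, fell from 473 ± 42.0 to 135 ± 12.3 (log2 difference −1.80, limma adjusted p = 8.28e-06). *PDZD4*, 30.95 kb from *L1CAM*, fell from 1064 ± 101 to 635 ± 27.0 (log2 difference −0.74, limma adjusted p = 0.000215). *CNTN4*, a contactin gene and the nearest tested gene to *CHL1*, 1689 kb away, fell from 185 ± 36.1 to 76.8 ± 13.0 (log2 difference −1.25, limma adjusted p = 0.00117). *VGLL3*, a TEAD cofactor gene 802 kb beyond *CADM2*, fell from 1711 ± 291 to 668 ± 134 (log2 difference −1.36, limma adjusted p = 0.000119).

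The genes that act with these molecules were listed by role, with earlier results of these data known. Their counts and p-values are therefore given as a description. The 6 lists held 239 genes, of which 182 could be tested, 44 rose and 41 fell, together 46.7% past the threshold against 37.7% of all genes tested. The median log2 difference over the 182 was 0.02, against −0.000858 over all genes tested.

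Other adhesion genes of the immunoglobulin superfamily moved in both directions, with 10 of 38 tested higher and 10 lower (52.6%; median −0.08). The nectins and the poliovirus receptor, which bind CADM relatives and one another at junctions, mostly rose. *NECTIN4* was at 97.8, 171 and 131 in parental and at 319, 314 and 360.1 in resistant libraries, with no overlap (log2 difference 1.34, limma adjusted p = 0.000514). *NECTIN3* rose from 452 ± 167 to 913 ± 142 (log2 difference 1.06, limma adjusted p = 0.00335). *NECTIN1* (log2 difference 0.30, limma adjusted p = 0.00788, or 0.0512 without the intensity trend) and *PVR* (0.37, limma adjusted p = 0.00125) rose by less, and *NECTIN2* fell (−0.29, limma adjusted p = 0.00996). *ALCAM*, a homophilic molecule that also binds L1CAM, was at 17032, 17884 and 17611 in parental and at 10849, 10419 and 11394 in resistant libraries (log2 difference −0.69, limma adjusted p = 1.54e-05). *CNTN1*, a contactin that pairs with neurofascin and NRCAM, was at 441 ± 62.0 and 353 ± 51.6 (log2 difference −0.32, limma adjusted p = 0.113), and *CNTN2* was too low to test. Chosen after their values were seen, the genes at the ends of the list among those tested were *MPZL2* and *IGSF21*. *MPZL2*, an epithelial adhesion gene, rose from 105 ± 21.2 to 425 ± 80.2 (log2 difference 2.01, limma adjusted p = 3.73e-05). *IGSF21*, a synaptic adhesion gene, fell from 432 ± 19.4 to 74.2 ± 15.8 (log2 difference −2.54, limma adjusted p = 4.50e-06).

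Of the membrane skeleton and scaffold genes, through which the CADM and L1 proteins are anchored, 13 of 35 tested rose and 5 fell (51.4%; median 0.17), the latter 3 without parental library 3. The band 4.1 genes, whose proteins bind CADM tails, went both ways. *EPB41L2* was at 12.7, 23.7 and 5.85 in parental and at 599.7, 592 and 512 in resistant libraries. It went from a low level in each parental library to at least 512 in each resistant library, with a log2 difference of 5.42 (SE 0.38, limma adjusted p = 5.75e-06). *EPB41L1* rose from 1367 ± 108 to 1907 ± 170 (log2 difference 0.48, limma adjusted p = 0.00227), whereas *EPB41L3*, also called DAL-1 and known as a partner of CADM1, fell from 1292 ± 96.2 to 854 ± 41.5 (−0.60, limma adjusted p = 0.000452). Of the PDZ scaffolds, *MPP2* rose from 560 ± 32.6 to 886 ± 41.3 (log2 difference 0.66, limma adjusted p = 0.000329) and *MPP1* rose by 0.31 (limma adjusted p = 0.0402), a call lost without the filter and when any library but resistant library 8 was left out. *CASK* had a log2 difference of −0.10 and was not past the threshold, and *MPP3* was too low to test. *ANK3*, which encodes ankyrin-G, a partner of neurofascin and NRCAM, rose from 1085 ± 92.7 to 1591 ± 167 (log2 difference 0.55, limma adjusted p = 0.00164), *ANK2* was at 0.05 and not past the threshold, and *SPTBN1*, a beta-spectrin, fell by 0.27 on the log2 scale (limma adjusted p = 0.00368, or 0.0502 with quantile normalization). Chosen after its values were seen, *DLG2*, a synaptic scaffold gene, rose from 955 ± 37.6 to 2354 ± 149 (limma adjusted p = 1.99e-06).

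**Figure D5:**
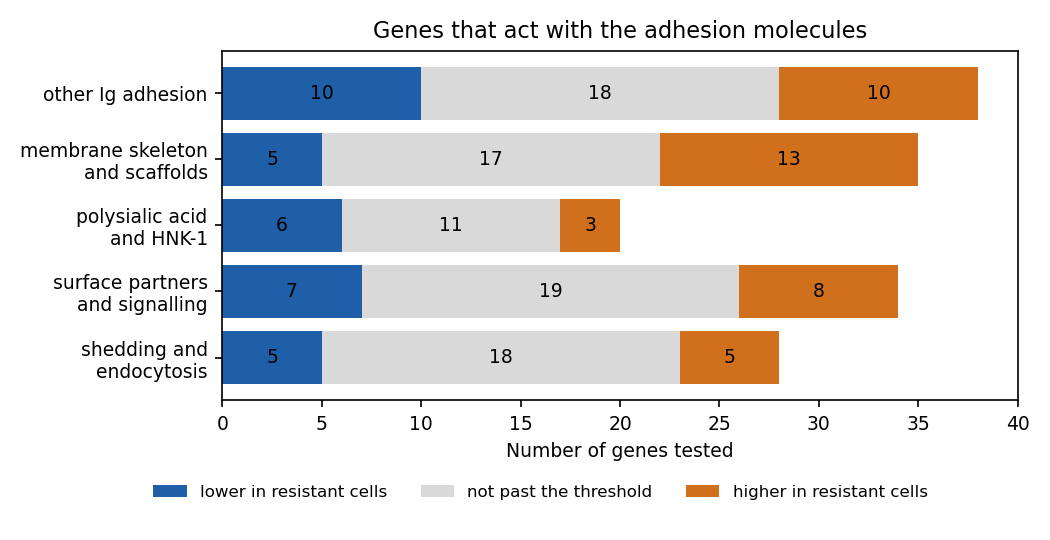
Number of genes tested in each of 5 lists of genes that act with the adhesion molecules, split into those lower in resistant cells (blue), those not past the threshold (grey) and those higher (orange). The scaffold list has more higher than lower genes (13 and 5), and the polysialic acid and HNK-1 list more lower than higher ones (6 and 3).

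The sugars carried by NCAM1 and L1CAM are made by their own enzymes. In the list of polysialic acid and HNK-1 genes 3 of 20 tested rose and 6 fell (45%; median −0.04). *ST8SIA2*, a polysialyltransferase that acts on NCAM1, was at 305, 282 and 253 in parental and at 211, 209 and 207 in resistant libraries, with no overlap (log2 difference −0.41, limma adjusted p = 0.0302). It was no longer past the threshold when any library but parental library 3 was left out, and with each gene set against its neighbors its log2 difference was 0.14. *ST8SIA4*, the other polysialyltransferase, was too low to test, at 6.45 to 13.2 in parental and 6.95 to 13.4 in resistant libraries. *B3GAT1*, which makes the HNK-1 (CD57) epitope, was at 664, 730.2 and 590 in parental and at 315, 340.1 and 346 in resistant libraries (log2 difference −0.98, limma adjusted p = 0.000112). At the start of sialic acid synthesis, and chosen after their values were seen, *GNE* rose from 486 ± 20.8 to 904 ± 27.2 (log2 difference 0.89, limma adjusted p = 4.05e-05) and *NANS* fell from 898 ± 16.6 to 409 ± 33.5 (−1.13, limma adjusted p = 1.65e-05). The sugars themselves were not measured.

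Among surface partners and signaling genes 8 of 34 tested rose and 7 fell (44.1%; median 0.09). *NRP1*, a semaphorin co-receptor that L1CAM binds, was at 4331, 3592 and 4002 in parental and at 1148, 1225 and 1363 in resistant libraries, the resistant libraries all below the parental (log2 difference −1.67, limma adjusted p = 1.15e-06). *FYN*, the kinase that signals from NCAM1, fell from 1040.4 ± 62.5 to 646 ± 75.0 (−0.69, limma adjusted p = 0.000534). *FGFR1*, the receptor that NCAM1 and L1CAM engage, rose from 229 ± 38.2 to 371 ± 93.0 (0.68, limma adjusted p = 0.0199), a call lost without parental library 3, resistant library 8 or the intensity trend. *ITGB1* fell by 0.23 on the log2 scale (limma adjusted p = 0.0416), a call lost without the filter or the trend, with quantile normalization (−0.11) and when any library but parental library 2 was left out, and *DCX*, a microtubule-associated partner of neurofascin, was near 0. Of the genes of shedding and endocytosis, which clear these molecules from the surface, 5 of 28 tested rose and 5 fell (35.7%; median 0.02). Without resistant library 9 these counts were 2 and 3, without parental library 3 they were 3 and 3, and without resistant library 8 the number that fell was 3. The sheddase *ADAM17* fell from 1543 ± 54.7 to 1259 ± 53.4 (log2 difference −0.29, limma adjusted p = 0.0103), and neither *ADAM10* (0.05) nor *BACE1* (0.02) was past the threshold, although *ADAM10* was past it and lower (−0.48) when set against its neighbors on the chromosome.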

How the data were processed

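RNA from 3 parental and 3 resistant H526 libraries was compared. The authors trimmed reads with Trimmomatic 0.38, quantified them with RSEM 1.3.1 (STAR is also listed in the submitters' processing notes) on GRCh38 with Gencode 43, and deposited gene counts normalized with DESeq2 1.30.0. The deposited values are a normalized signal that is never negative, with replicates kept apart. Whole multiples of 1 read (tolerance 0.1) made up 55.9% to 64.7% of the low values, too few to recover reads, so no count model was fitted. The kit is not stated to mark strand.

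Of 62757 rows, 47 identical pseudoautosomal copies were dropped, and 62639 of the 62710 left were named and placed with Gencode 44. The test was limma 3.58.1 under R 4.3.3 (lmFit, eBayes with trend) on log2(value + 1) of genes whose mean reached 10, with a single group term. Adjustment was by Benjamini-Hochberg. No 2 libraries shared an equal value among 11114 genes over 100 in all libraries. With 3 against 3 libraries an exact permutation test of 1 gene cannot go below 0.10. Other steps used Python 3.11.15 with pandas 2.3.3. The limma steps were tested on simulated data.

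The members and lists were chosen with earlier results of these data known. Named genes were the 10 members, genes named after or overlapping them, the nearest tested gene on each side, and partner and marker genes listed by role. Others are named as chosen after their values were seen. Promoters came from RefSeq, where 7 of the 10 members had an entry. Settings varied one at a time were the pseudocount (0.1 or 10), the filter (none, or a mean of 50), scaling by TMM or quantiles, the trend, local median centring (each library's median deviation over neighboring genes subtracted) and each library left out, as well as 10 or 50 neighbors on either side and the median transcript length.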

Additional observations from a re-analysis of the deposited data

How the results depend on the processing

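The members were chosen with this contrast known, so their calls below only describe how the values depend on the setting. *CADM1*, *CADM3*, *NCAM1* and *L1CAM* were lower and past the threshold in each of 14 other settings, in which the log2 difference of *CADM3* ran from −2.74 to −2.58 and that of *NCAM1* from −0.55 to −0.38. *NFASC* was past it in 11 of the 14, and *CADM4* in 1, when parental library 2 was left out. With local median centring 1 member, *NRCAM*, was past the threshold and higher, against 0 otherwise. That centring also lowered the number of scaffold genes that rose from 13 to 8, and turned *ST8SIA2* (0.14) and *PNPLA8* (0.15) to above 0, *MRPL39* (−0.11) to below 0 and *ADAM10* to below 0 and past the threshold (−0.48). Without the intensity trend, 2 scaffold genes and 2 shedding and endocytosis genes fell, 2 of the latter list rose, and 3 of the other neural adhesion families rose. Of 58 other tested genes followed over these settings, 45 kept their side of the threshold in every setting that tested them. The number of all genes past the threshold ran from 4784 (without resistant library 8) to 6228 (pseudocount of 10). No pairing was fitted, because the groups share no replicate numbers and the labels do not say whether the harvests were matched. *CADM2* and *CHL1* had libraries at or under the value of 3 reads in both groups and were past the threshold in 0 of the settings that tested them (1 and 4), and *NCAM2* was listed at 0.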

Other observations

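Neural adhesion genes outside the immunoglobulin superfamily (cadherins, neurexins, neuroligins, teneurins, latrophilins and their relatives) showed changes in both directions, with 5 of 28 tested higher and 8 lower in resistant cells (46.4% past the threshold). Without parental library 2, or with a minimum mean of 50, 5 were lower. *CDH1*, which encodes E-cadherin, was at 17688 ± 1346 in parental and 18031 ± 1045 in resistant cells (SD, n = 3 per group; log2 difference 0.03, not past the threshold). *CDH2*, which encodes N-cadherin, was at 654, 627 and 659 in parental and at 310.1, 374 and 428 in resistant libraries, with no overlap (log2 difference −0.81, limma adjusted p = 0.000699). Named after their values were seen, *NRXN2*, a presynaptic neurexin gene, fell from 471 ± 82.9 to 142 ± 20.0 (log2 difference −1.72, limma adjusted p = 3.53e-05) and *NLGN4X*, a neuroligin gene, fell from 544 ± 79.2 to 260 ± 76.4 (−1.09, limma adjusted p = 0.00171). *CLSTN2*, a calsyntenin gene at a high level in both lines, rose from 33829 ± 6180 to 46286 ± 2089 (0.47, limma adjusted p = 0.00747, or 0.0552 without the intensity trend), and *CDH11*, a mesenchymal cadherin gene, rose from 25.9 ± 15.5 to 88.8 ± 17.2 (1.87, limma adjusted p = 0.00367).

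Among the surface partners, *PTPRZ1*, a receptor phosphatase gene whose product binds contactins and NCAM1, was also named after its values were seen. It fell from 2706 ± 288 to 778 ± 21.3 (log2 difference −1.79, limma adjusted p = 6.29e-07).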
